A study of Mus musculus with 22 samples.

Results

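RIPK1 is a protein kinase and scaffold on which receptors of the tumour necrosis factor (TNF) and Toll-like families decide between survival signalling and death of the cell, and 10 genes of its signalling complex were followed in mouse BMDM, macrophages differentiated in a dish from bone marrow precursors. The genes were Ripk1, Ripk3, Mlkl, Casp8, Cflar, Birc2, Birc3, Xiap, Fadd and Traf2. They were chosen by name and not by a measured value, though earlier results of these data were known. Every array probe whose RefSeq accession maps to one of these symbols was taken. This gave 13 probes for the 10 genes, out of 28054 probes for 22346 genes tested, and all 13 member probes were well above background on each of the 22 arrays. Cflar was covered by 3 probes, Traf2 by 2 and each of the others by 1. Where a gene is counted once, its brightest probe stands for it.

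Transcripts were measured with 1-colour Agilent arrays in BMDM from wild-type mice (wt), from mice without the kinase MK2 (MK2-/-) and from mice without both MK2 and the related kinase MK3 (MK2/3-/-). The study asked how these kinases, which act downstream of p38 MAP kinase, shape the transcript response to lipopolysaccharide (LPS), a bacterial cell wall molecule sensed by Toll-like receptor 4. Each genotype was analysed after 360 min with 100 ng/ml LPS or with medium alone. The 22 arrays comprised 4 of wt in medium, 3 of wt with LPS, 4 and 4 of MK2-/-, and 3 and 4 of MK2/3-/- in the same order.

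All mice were C57BL/6, were labelled male and were 10 to 14 weeks old, the wt mice 12 or 13 weeks, the MK2-/- mice 10 to 13 weeks and the MK2/3-/- mice 11 to 14 weeks. Marrow of the femur was grown for 9 days with 10 ng/ml M-CSF, a growth factor that drives macrophage differentiation, and per the study's methods this factor was withdrawn shortly before LPS was added. The kinases were missing from the germline, so the marrow precursors and the differentiating macrophages lacked them as well as the LPS-treated cells. Per the methods the replicates were independent experiments. Each genotype was hybridised on a slide of its own, so that genotype and slide cannot be told apart, whereas LPS and medium of a genotype shared a slide.

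At the plasma membrane, ligand-bound TNF receptor 1 gathers RIPK1, TRAF2 and the ubiquitin ligases cIAP1 (Birc2) and cIAP2 (Birc3), and ubiquitin chains attached to RIPK1 there feed NF-kappa-B and MAP kinase signalling. When this restraint fails, RIPK1 binds FADD and caspase-8 and the cell dies by apoptosis, unless the caspase-like protein cFLIP (Cflar) holds caspase-8 in check. Where caspase-8 is inactive, RIPK1 and RIPK3 activate MLKL, which breaches the plasma membrane in necroptosis. MK2 is known to phosphorylate RIPK1 and thereby to limit its death-promoting activity, a protein-level event that transcript arrays do not measure.

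Sequence just upstream of the transcribed span is shown for 4 genes. Birc2 and Fadd were taken because they passed the main test for a difference between genotypes under LPS. They passed it only for BMDM lacking both kinases against wt, and both results were lost in some alternatives, as given further on. Birc3 was taken because it neighbours Birc2 and encodes its closest relative, and Ripk1 because the complex is named for it. The sequences are RefSeq's on build GRCm38.p6, read 5′ to 3′ on the strand of the gene, in lower case throughout, and end where the annotated span of the gene begins, which for Birc2, Birc3 and Ripk1 lies upstream of the transcript starts used for the motif search.
Birc2, chr9:7837132-7837307, minus strand: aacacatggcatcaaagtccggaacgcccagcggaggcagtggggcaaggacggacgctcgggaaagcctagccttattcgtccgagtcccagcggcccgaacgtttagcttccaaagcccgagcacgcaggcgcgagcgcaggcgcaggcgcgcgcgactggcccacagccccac
Birc3, chr9:7873206-7873420, minus strand: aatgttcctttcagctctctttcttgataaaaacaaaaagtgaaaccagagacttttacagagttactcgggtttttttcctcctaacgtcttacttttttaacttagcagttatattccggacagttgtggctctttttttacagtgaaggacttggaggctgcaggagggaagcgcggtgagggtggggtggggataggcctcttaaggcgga
Fadd, chr7:144582442-144582691, minus strand: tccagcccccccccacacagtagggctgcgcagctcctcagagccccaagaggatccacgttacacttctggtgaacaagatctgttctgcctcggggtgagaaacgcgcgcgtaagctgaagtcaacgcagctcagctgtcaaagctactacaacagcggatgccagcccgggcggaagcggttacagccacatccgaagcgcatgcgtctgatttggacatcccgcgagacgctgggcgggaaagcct
Ripk1, chr13:34002113-34002224, plus strand: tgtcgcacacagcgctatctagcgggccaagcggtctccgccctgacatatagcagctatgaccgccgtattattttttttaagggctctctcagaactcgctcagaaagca

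The Birc2 stretch held 67.0% G and C over 176 bases with 21 CpG dinucleotides, whereas that of Birc3, which starts 36.1 kb away on the same strand of chromosome 9, held 44.2% over 215 bases with 6 CpG. The Fadd stretch held 60.4% over 250 bases with 19 CpG, and the Ripk1 stretch held 51.8% over 112 bases with 8 CpG. Casp8 and Cflar are likewise neighbours, 91.0 kb apart on the plus strand of chromosome 1. Their 250 bases before the start held 39.6% and 42.8% G and C, below the median of 52.4% over 32841 RefSeq promoters.

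Motifs of 3 transcription factor families that act in the LPS response were searched on both strands in the 250 bases before each of the 14 annotated starts of the 10 genes. These were the kappa-B motif of NF-kappa-B, the interferon-stimulated response element (GAAA, any 2 bases and GAAA again) and the STAT motif TTCNNNGAA, which occurred in 3.90%, 2.98% and 7.02% of all promoters of that length. Among the 10 genes the second start of Ripk1 alone held a match, with the STAT motif 108 and 11 bases before the start, shown here in capitals within their surroundings.
Ripk1, chr13:34002756-34002784, plus strand: agaagctggtTTCCCGGAAggggcggagg
Ripk1, chr13:34002853-34002873, plus strand: acttcaaacgTTCCCGGAAat
These are matches of letters, and whether a factor binds there was not measured.

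The labels were checked first. Mapkapk2, the gene of MK2, read 10.77 to 12.39 on the log2 signal scale in wt medium and 14.28 to 15.33 in wt LPS, against at most 9.01 and 11.95 in the MK2-/- arrays and 8.50 and 11.22 in the MK2/3-/- arrays. Mapkapk3, the gene of MK3, read at most 11.40 in MK2/3-/- medium and 8.55 in MK2/3-/- LPS, and at least 11.92 on every other array. Where these probes lie relative to the deleted exons was not known here. Macrophage markers were well above background on every array, except Itgam on 1 wt medium array, for the 7 markers of 8 that had a probe, with a summed signal of 442234 to 757557. In replicate 3 of MK2-/- LPS and of MK2-/- medium, Y-linked Ddx3y read 1.99 and 2.01 against at least 10.09 on the other 20 arrays, and Xist read 7.66 and 7.78 against at most 5.79, although both arrays are labelled male. Results that use them are therefore also given without both wherever that changed a call or a direction. Wt medium replicate 4 read higher than its group in 793 LPS-inducible genes, with a median of 9.44 against 8.80 to 8.94.

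**Figure D1:**
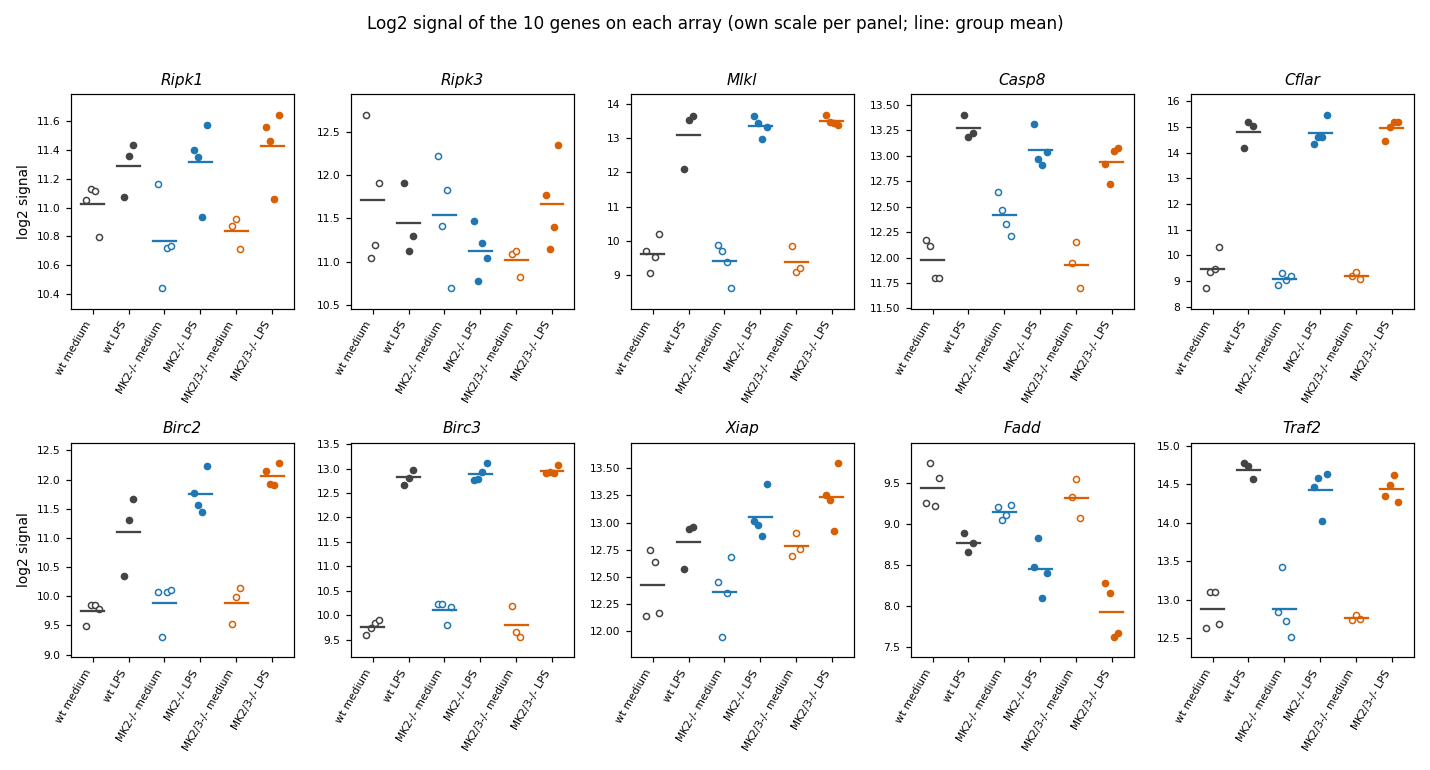
Log2 signal (vertical axis, own scale in each panel) of the brightest probe of each of the 10 genes on the 22 arrays, by genotype and treatment. Each point is 1 array, open in medium and filled with LPS, and each line is the group mean. Mlkl, Casp8, Cflar, Birc2, Birc3, Fadd and Traf2 separated LPS from medium without overlap in each genotype. Ripk1, at 10.44 to 11.65, and Ripk3, at 10.70 to 12.70, varied about as much within groups as between them.

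LPS changed most of the complex at the transcript level, and mainly upwards. In wt BMDM 6 of the 10 genes rose (Mlkl, Casp8, Cflar, Birc2, Birc3 and Traf2), 1 fell (Fadd), and Ripk1, Ripk3 and Xiap did not pass the test. A gene was called when its adjusted p, from limma over all 28054 probes, was below 0.05. In wt 42.2% of all 22346 genes were called, 18.6% higher and 23.5% lower. In MK2-/- BMDM 9 of the 10 were called, 8 higher and 1 lower, where 44.8% of all genes were called, 17.6% higher and 27.2% lower. In MK2/3-/- BMDM it was 8 of 10, 7 higher and 1 lower, where 48.3% of all genes were called, 20.3% higher and 28% lower. With each array scaled to its 75th percentile, the share of called probes that were higher went from 43.6% to 59.6% in wt, from 38.8% to 52.6% in MK2-/- and from 41.4% to 53.3% in MK2/3-/-. The median change of the 10 genes was 1.33, 1.12 and 1.34 log2 units in wt, MK2-/- and MK2/3-/-, against -0.04, -0.01 and 0.02 over all genes. The 6 genes that rose in wt also rose in both knockouts, and Fadd fell in all 3 genotypes. Xiap joined them in MK2-/- and Ripk1 in both knockouts. As these are bulk samples, a change in the share of cells of a type and a change in RNA per cell cannot be told apart. Marker lists moved with LPS too. The summed macrophage markers went from 557101 to 757557 in wt medium to 442234 to 494911 in wt LPS, with no overlap there or in MK2/3-/- and with overlap in MK2-/-. Single markers of this list were split. Of the 7 with a probe 2 were called higher and 3 lower in wt, 2 and 4 in MK2-/-, and 2 and 3 in MK2/3-/-. The summed T cell markers went from 3613 to 4498 in wt medium to 5438 to 5889 in wt LPS, and overlapped between treatments in both knockouts. Of the 4 single markers Cd3e alone was called with LPS in wt, none in MK2-/-, and Cd3e and Cd3d in MK2/3-/-, all higher. The 3 dendritic cell markers summed to 172 to 404 over all medium arrays and 1349 to 4048 over all LPS arrays, led by Zbtb46, while Xcr1 was well above background on the MK2/3-/- LPS arrays alone. Whether these signals come from such cells, and the part of such cells in the changes of the members, was not tested.

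**Figure D2:**
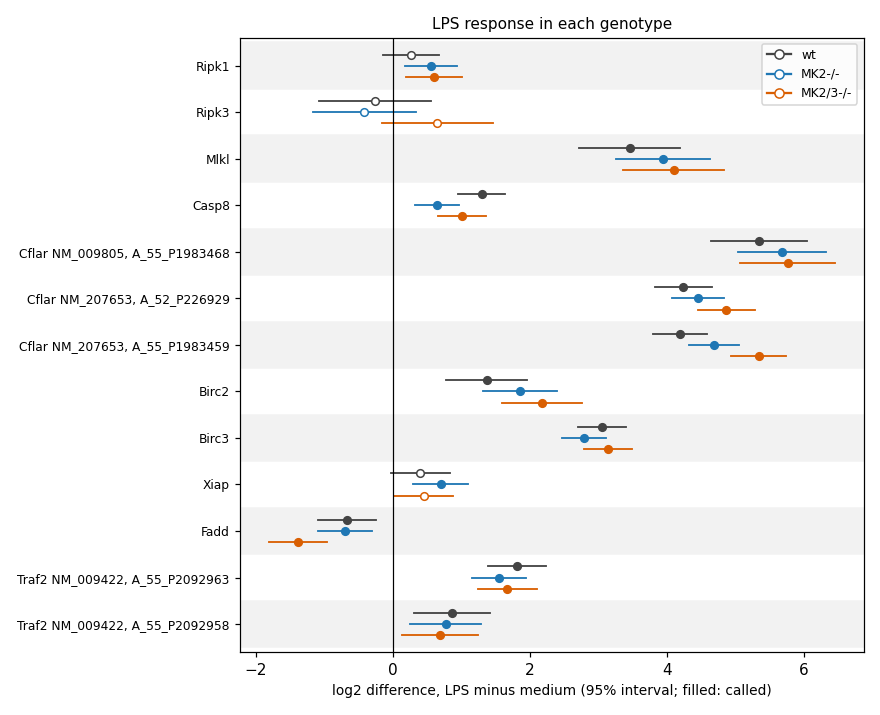
Change with LPS (horizontal axis, log2 difference LPS minus medium) of each of the 13 probes in wt, MK2-/- and MK2/3-/- BMDM. Points are limma estimates, bars are 95% intervals and filled points were called. Cflar, at 4.19 to 5.76 over its 3 probes and 3 genotypes, lay farthest to the right, Fadd alone was called to the left of 0, and the 3 intervals of Ripk3 spanned 0.

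Ripk1 itself moved little. Its log2 signals in wt medium were 11.05, 11.13, 11.12 and 10.80, and with LPS 11.07, 11.36 and 11.44. MK2-/- BMDM read 11.16, 10.44, 10.72 and 10.73 in medium and 11.40, 11.35, 10.93 and 11.58 with LPS. MK2/3-/- BMDM read 10.87, 10.92 and 10.71 in medium and 11.56, 11.46, 11.06 and 11.65 with LPS. The LPS and medium arrays overlapped in wt and in MK2-/-, where the first medium array and the third LPS array crossed, and they were separate in MK2/3-/-. Neighbouring groups overlapped throughout the order of the 6 means, which ran from MK2/3-/- LPS at 11.43 down to MK2-/- medium at 10.76.

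The change of Ripk1 with LPS was 0.27 in wt (95% interval -0.14 to 0.67, adjusted p = 0.298), 0.55 in MK2-/- (0.18 to 0.93, adjusted p = 0.0167) and 0.60 in MK2/3-/- (0.19 to 1.00, adjusted p = 0.0159). The call in MK2-/- was lost without LPS replicate 4, at 0.47, or without medium replicate 2, at 0.44, and that in MK2/3-/- without medium replicate 3, at 0.54. The same calls were also lost when only the groups compared were fitted. That the knockouts passed the threshold and wt did not is no difference between them, and that difference is tested further on.

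Ripk3, the kinase that phosphorylates MLKL, was not called for LPS in any genotype. Wt medium spread widest, with 12.70, 11.04, 11.19 and 11.90, and wt LPS lay inside it at 11.91, 11.13 and 11.30. MK2-/- BMDM read 12.22, 11.41, 11.83 and 10.70 in medium and 11.47, 10.77, 11.21 and 11.05 with LPS. MK2/3-/- BMDM read 11.10, 11.13 and 10.83 in medium and 11.77, 11.14, 11.40 and 12.35 with LPS. The groups overlapped in wt and MK2-/-, and in MK2/3-/- every LPS array lay above every medium array. The changes were -0.26 in wt (95% interval -1.08 to 0.55, adjusted p = 0.632), -0.42 in MK2-/- (-1.17 to 0.34, adjusted p = 0.38) and 0.65 in MK2/3-/- (-0.16 to 1.47, adjusted p = 0.182). The wt value turned to 0.067 without medium replicate 1.

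Mlkl, which encodes the membrane-breaching effector of necroptosis, rose strongly in each genotype. Wt arrays read 9.71, 9.05, 9.53 and 10.19 in medium and 12.10, 13.51 and 13.62 with LPS. MK2-/- arrays read 9.89, 9.69, 9.39 and 8.63 in medium and 13.63, 13.43, 12.98 and 13.32 with LPS, and MK2/3-/- arrays 9.84, 9.10 and 9.22 in medium and 13.68, 13.47, 13.44 and 13.37 with LPS. No LPS array overlapped a medium array, and the first wt LPS array was the lowest of the 11 with LPS. The rise was 3.46 (SE 0.35, adjusted p = 2.7e-07, 11.0-fold) in wt, 3.94 (SE 0.33, adjusted p = 9.47e-09, 15.3-fold) in MK2-/- and 4.10 (SE 0.35, adjusted p = 1.67e-08, 17.1-fold) in MK2/3-/-.

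Casp8, the initiator caspase that cleaves RIPK1 and RIPK3, also rose. Wt arrays read 12.17, 12.12, 11.80 and 11.80 in medium and 13.40, 13.18 and 13.22 with LPS. MK2-/- arrays started higher, at 12.64, 12.47, 12.33 and 12.22, and reached 13.32, 12.96, 12.91 and 13.04. MK2/3-/- arrays read 11.94, 12.15 and 11.70 in medium and 12.91, 12.72, 13.04 and 13.07 with LPS. LPS and medium did not overlap in any genotype, and the MK2-/- medium arrays lay above all other medium arrays. The rise was 1.29 (SE 0.17, adjusted p = 4.3e-06, 2.45-fold) in wt, 0.64 (SE 0.15, adjusted p = 0.00186, 1.56-fold) in MK2-/- and 1.00 (SE 0.17, adjusted p = 4.79e-05, 2.01-fold) in MK2/3-/-.

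Fadd, the adaptor that brings caspase-8 into the complex, was the member that fell. Wt arrays read 9.26, 9.74, 9.22 and 9.56 in medium and 8.89, 8.66 and 8.77 with LPS. MK2-/- arrays read 9.21, 9.06, 9.12 and 9.24 in medium and 8.48, 8.83, 8.10 and 8.41 with LPS, and MK2/3-/- arrays 9.33, 9.56 and 9.07 in medium and 8.29, 8.16, 7.63 and 7.67 with LPS. Every LPS array lay below every medium array of its genotype, and the 2 lowest of the 22 arrays were MK2/3-/- LPS replicates 3 and 4. Fadd fell by 0.67 in wt (SE 0.20, adjusted p = 0.0117), by 0.70 in MK2-/- (SE 0.19, adjusted p = 0.00445) and by 1.39 in MK2/3-/- (SE 0.20, adjusted p = 1.22e-05). Without wt LPS replicate 2 the wt change was -0.62 and no longer called (adjusted p = 0.0507).

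Cflar, the gene of the caspase-8 regulator cFLIP, showed the largest change of the 10 in each genotype. Its brightest probe, of accession NM_009805, read 8.73, 9.33, 9.45 and 10.34 in wt medium and 14.19, 15.19 and 15.03 in wt LPS. MK2-/- arrays read 8.83, 9.30, 9.02 and 9.20 in medium and 14.35, 14.62, 14.61 and 15.48 with LPS, and MK2/3-/- arrays 9.20, 9.35 and 9.06 in medium and 14.47, 14.98, 15.20 and 15.20 with LPS. The highest medium array was wt medium replicate 4, which also read high for the LPS-inducible genes as a whole. The rise was 5.34 (SE 0.33, adjusted p = 7.78e-10, 40.6-fold) in wt, 5.68 (SE 0.31, adjusted p = 6.39e-11, 51.2-fold) in MK2-/- and 5.76 (SE 0.33, adjusted p = 1.5e-10, 54.2-fold) in MK2/3-/-. The 2 probes of accession NM_207653 rose by 4.24 and 4.19 in wt (18.9-fold and 18.3-fold), by 4.46 and 4.69 in MK2-/-, and by 4.87 and 5.34 in MK2/3-/-, all called. The probe A_52_P226929 read 9.48, 9.73, 9.83 and 9.85 in wt medium and 13.39, 14.33 and 14.18 in wt LPS, and 9.76, 9.65 and 9.45 in MK2/3-/- medium and 14.50, 14.64, 14.33 and 14.47 in MK2/3-/- LPS, with LPS far above medium in both.

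**Figure D3:**
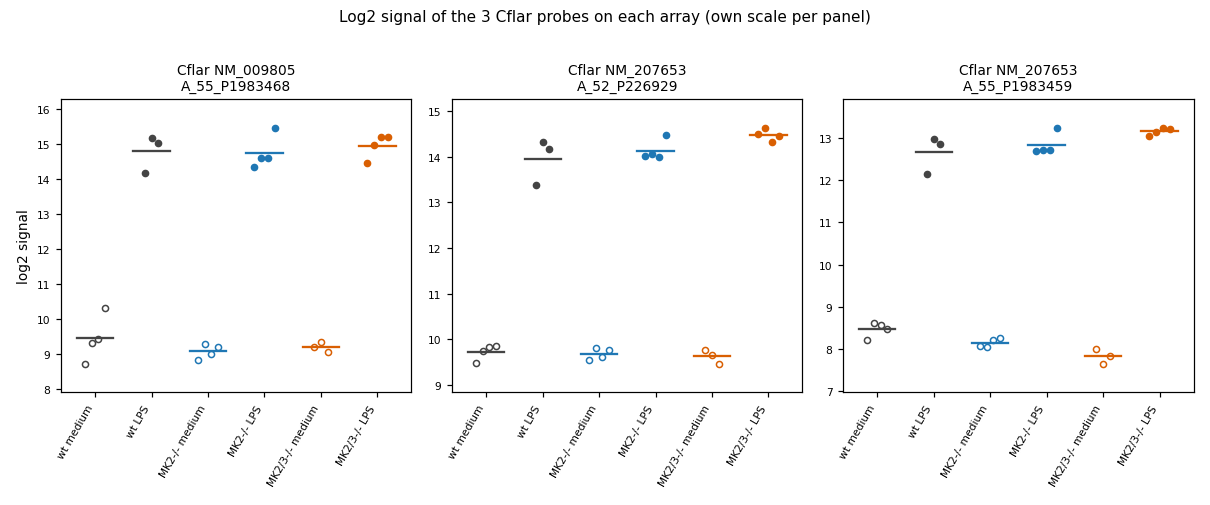
Log2 signal (vertical axis, own scale in each panel) of the 3 Cflar probes on the 22 arrays, by genotype and treatment. Each point is 1 array, open in medium and filled with LPS, and each line is the group mean. With the 2 probes of NM_207653 all 4 MK2/3-/- LPS arrays lay above all 3 wt LPS arrays, and with probe A_55_P1983459 the MK2/3-/- medium arrays, at 7.64 to 8.0, lay below the wt medium arrays, at 8.22 to 8.63.

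Traf2, the adaptor that recruits the cIAP ligases, and Birc3, the gene of cIAP2, both rose in all genotypes. The brightest Traf2 probe read 12.52 to 13.42 over the 11 medium arrays and 14.02 to 14.77 over the 11 LPS arrays, a rise of 1.81 (SE 0.20, 3.51-fold) in wt, 1.55 (SE 0.19, 2.93-fold) in MK2-/- and 1.67 (SE 0.20, 3.19-fold) in MK2/3-/-, with adjusted p from 9.45e-07 to 1.34e-06. Its second probe moved less, by 0.86, 0.77 and 0.69 (adjusted p = 0.0137, 0.0147 and 0.0389). The calls of that second probe were lost without wt LPS replicate 3 (0.63), without MK2-/- medium replicate 4 (0.58) and, in MK2/3-/-, without LPS replicate 1 (0.57) or 2 (0.56) or without medium replicate 1 (0.74), 2 (0.70) or 3 (0.62). Birc3 read 9.57 to 10.23 in medium and 12.67 to 13.11 with LPS, with no overlap and little spread within a group. It rose by 3.05 (SE 0.17, adjusted p = 2.95e-10, 8.27-fold) in wt, 2.79 (SE 0.16, adjusted p = 7.82e-11, 6.91-fold) in MK2-/- and 3.14 (SE 0.17, adjusted p = 7.31e-11, 8.83-fold) in MK2/3-/-.

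Birc2, the gene of cIAP1, rose less than its neighbour Birc3. Wt arrays read 9.49, 9.84, 9.85 and 9.78 in medium and 10.35, 11.30 and 11.67 with LPS. MK2-/- arrays read 10.08, 9.31, 10.07 and 10.11 in medium and 11.77, 11.57, 11.45 and 12.22 with LPS, and MK2/3-/- arrays 9.52, 9.99 and 10.15 in medium and 12.14, 11.92, 11.90 and 12.28 with LPS. Medium arrays overlapped across genotypes, while wt LPS replicate 1 was the lowest of the LPS arrays. The rise was 1.37 (SE 0.28, adjusted p = 0.00061, 2.58-fold) in wt, 1.86 (SE 0.26, adjusted p = 6.91e-06, 3.63-fold) in MK2-/- and 2.18 (SE 0.28, adjusted p = 2.57e-06, 4.52-fold) in MK2/3-/-. Birc2 and Birc3 are close in sequence, and binding of one transcript to the other's probe was not tested.

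Xiap, which encodes an inhibitor of caspases, moved by about as much as Ripk1. It read 12.14 to 12.75 in wt medium and 12.57 to 12.96 in wt LPS, which overlapped, 11.95 to 12.68 and 12.88 to 13.35 in MK2-/-, and 12.69 to 12.90 and 12.93 to 13.54 in MK2/3-/-, which did not. The change was 0.40 in wt (95% interval -0.03 to 0.83, adjusted p = 0.131), 0.69 in MK2-/- (SE 0.19, adjusted p = 0.00551, 1.62-fold) and 0.45 in MK2/3-/- (0.01 to 0.88, adjusted p = 0.0829). It was called in MK2/3-/- without LPS replicate 3, at 0.55, and with each array scaled to its 75th percentile it was called in wt at 0.82 and in MK2/3-/- at 0.96. That scaling shifted the median change of all probes with LPS by 0.33 in wt and 0.28 in MK2/3-/-.

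The second question was whether the kinases' absence changed the level of the complex under LPS. MK2-/- and MK2/3-/- are both set against the same wt arrays here, so the 2 comparisons are not independent. Between MK2-/- and wt none of the 10 genes was called by limma, while 11.6% of all genes were. At an unadjusted p below 0.05 there was 1 of 10 (29.5% of all genes), Birc2, higher by 0.64 in MK2-/- (95% interval 0.06 to 1.23, adjusted p = 0.131) and by 0.26 without wt LPS replicate 1, and the methods' t-test gave 0 after Benjamini-Hochberg adjustment. Between MK2/3-/- and wt 2 of the 10 were called, Birc2 higher and Fadd lower, where 23.7% of all genes were called, 9.65% higher and 14% lower, so that the share of members was near that of all genes. Scaling to the 75th percentile moved the share of called probes that were higher from 37.3% to 55.8% in this comparison. Between MK2/3-/- and MK2-/- none was called, against 13.5% of all genes, 1 had an unadjusted p below 0.05 (28.4% of all genes), and the adjusted t-test of the methods gave 0.

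**Figure D4:**
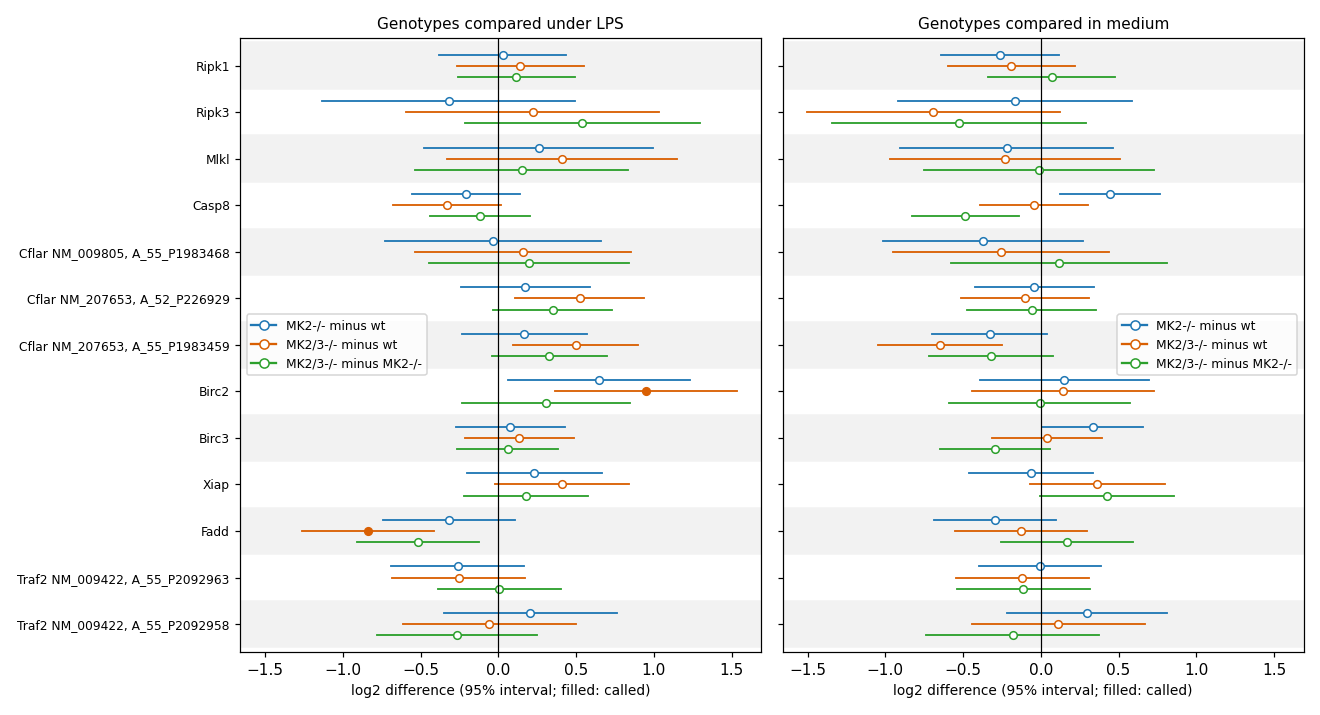
Differences between genotypes (horizontal axes, log2) under LPS on the left and in medium on the right, for each of the 13 probes. Points are limma estimates, bars are 95% intervals and filled points were called. The filled points are Birc2 at 0.95 and Fadd at -0.84, both for MK2/3-/- minus wt under LPS, and no point in medium is filled.

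Birc2 under LPS was higher in MK2/3-/- than in wt by 0.95 (95% interval 0.37 to 1.54, SE 0.28, adjusted p = 0.0194, 1.93-fold). The 4 MK2/3-/- arrays, at 11.90 to 12.28, all lay above the 3 wt arrays, of which the highest read 11.67 and the lowest, replicate 1, 10.35. Without that 1 array the difference was 0.57 and not called (adjusted p = 0.147). Nor was it called with scaling to the 75th percentile (0.77, adjusted p = 0.0678) or with array weights (0.70, adjusted p = 0.0704). With limma fitted to the groups compared alone the adjusted p was 0.114, and with the methods' t-test after adjustment it was 0.174. Against MK2-/-, MK2/3-/- was higher by 0.31 (-0.23 to 0.85, adjusted p = 0.484), and the groups overlapped.

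Fadd under LPS was lower in MK2/3-/- than in wt by 0.84 (95% interval 0.41 to 1.26 lower, SE 0.20, adjusted p = 0.0062, 1.79-fold). All 4 MK2/3-/- arrays, at 7.63 to 8.29, lay below all 3 wt arrays, at 8.66 to 8.89. The difference stayed called without any 1 array, but not when limma was fitted to these 2 groups alone (adjusted p = 0.0746) or with the methods' t-test after adjustment (0.0996). MK2-/- lay between, at 8.10 to 8.83, and MK2/3-/- was below it by 0.52 (adjusted p = 0.0742). Without the 2 MK2-/- arrays whose sex-linked genes went against their label, that difference was -0.64 and called (adjusted p = 0.0444). It was also called without MK2-/- LPS replicate 3 alone (-0.64), an array with 2927 spots marked as outliers against 115 to 261 on the others, or without MK2/3-/- LPS replicate 1 (-0.64).

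Ripk1 under LPS did not differ between genotypes beyond the spread. Its differences were 0.03 for MK2-/- against wt (95% interval -0.38 to 0.43, adjusted p = 0.944) and 0.14 for MK2/3-/- against wt (-0.27 to 0.55, adjusted p = 0.637), and both turned to lower, at -0.19 and -0.15, with scaling to the 75th percentile. MK2/3-/- against MK2-/- was 0.11 (-0.26 to 0.49, adjusted p = 0.741), and -0.013 without both arrays that went against their sex label. Mlkl was 0.26 and 0.41 higher in MK2-/- and MK2/3-/- than in wt under LPS, and Ripk3 0.32 lower and 0.22 higher, none of them called.

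Casp8 and Cflar were not called, and of these only 2 Cflar probes, not the brightest, came near the threshold. Casp8 was lower in MK2/3-/- than in wt under LPS by 0.33 (adjusted p = 0.154), with no overlap between 12.72 to 13.07 and 13.18 to 13.40. With scaling to the 75th percentile this became -0.65 and was called (adjusted p = 0.00987), so that 2 of the 10 genes were then called, both lower (Casp8 and Fadd), in place of 1 higher and 1 lower. The 2 NM_207653 probes of Cflar were higher in MK2/3-/- than in wt by 0.52 and 0.50 (adjusted p = 0.0618 and 0.0668), again without overlap, and both were called without wt LPS replicate 2, at 0.70 and 0.66, and fell to 0.24 each without wt LPS replicate 1. The brightest Cflar probe gave 0.16 (95% interval -0.53 to 0.85), with overlap. Xiap was 0.41 higher (-0.02 to 0.84, adjusted p = 0.159), and Birc3 and the brightest Traf2 probe gave 0.14 and -0.26, neither called.

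The summed T cell markers also differed in this comparison. The 4 genes, Cd3e, Cd3d, Cd4 and Cd8a, summed to a signal of 5438 to 5889 in wt LPS and 6611 to 11898 in MK2/3-/- LPS, without overlap, led by Cd4, at 11.59 to 11.82 and 12.25 to 13.01. Cd4 alone of the 4 was called, higher in MK2/3-/-. Cd3d was near background in both groups, at 3.95 to 5.29 and 3.80 to 7.54. In medium the T cell sums did not overlap either, at 3613 to 4498 in wt and 6698 to 9270 in MK2/3-/-. Under LPS the summed neutrophil markers (5 of 6 with a probe) overlapped, at 7143 to 12279 and 4188 to 13474, although S100a8 among them was called lower in MK2/3-/-. The 3 stromal markers overlapped too, at 3561 to 13981 and 397 to 10475. Whether these signals come from such cells, and the part of such cells in the Birc2 and Fadd differences, was not tested.

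In medium none of the 10 genes was called by limma in any pair of genotypes, where 8.37% (MK2-/- against wt), 2% (MK2/3-/- against wt) and 2.78% (MK2/3-/- against MK2-/-) of all genes were. At an unadjusted p below 0.05 there were 2, 0 and 1 of 10, against 25.9%, 16.9% and 15% of all genes, and after Benjamini-Hochberg adjustment the methods' t-test called 0 in each. Casp8 came nearest: it was higher in MK2-/- than in wt by 0.44 (95% interval 0.12 to 0.76, adjusted p = 0.0794) and lower in MK2/3-/- than in MK2-/- by 0.48 (adjusted p = 0.138), with no overlap in either pair. The first difference was 0.17 with scaling to the 75th percentile. It was called by limma with normexp background correction (0.45, adjusted p = 0.0471) and with array weights (0.46, adjusted p = 0.0405). Birc3 was higher in MK2-/- than in wt by 0.33 (adjusted p = 0.185). Ripk1 differed by -0.26 (-0.64 to 0.12), -0.19 (-0.60 to 0.22) and 0.07 (-0.34 to 0.48) in the order of the 3 pairs. Of the single probes, the Cflar probe A_55_P1983459 was lower in MK2/3-/- than in wt by 0.65 (adjusted p = 0.0832), with 7.64 to 8.0 against 8.22 to 8.63, and was called without wt LPS replicate 1 (adjusted p = 0.044).

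The last question was whether the response to LPS itself differed between genotypes, tested as the difference between 2 LPS changes. None of the 10 genes was called, for MK2-/- against wt (0% of all genes), MK2/3-/- against wt (0.917%) or MK2/3-/- against MK2-/- (0.0671%), and 1 of 10 had an unadjusted p below 0.05 in each, against 7.54%, 11.4% and 8.6% of all genes. For Ripk1 the differences were 0.29 (95% interval -0.27 to 0.84), 0.33 (-0.25 to 0.91) and 0.04 (-0.51 to 0.60, and -0.069 without both arrays that went against their sex label), so the larger change of Ripk1 in the knockouts was not distinguishable from that in wt. Casp8 rose less in MK2-/- than in wt by 0.65 (0.18 to 1.13 less, unadjusted p = 0.00932, adjusted p = 0.471). Fadd fell further in MK2/3-/- than in wt by 0.71 (adjusted p = 0.293) and than in MK2-/- by 0.69 (adjusted p = 0.478).

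**Figure D5:**
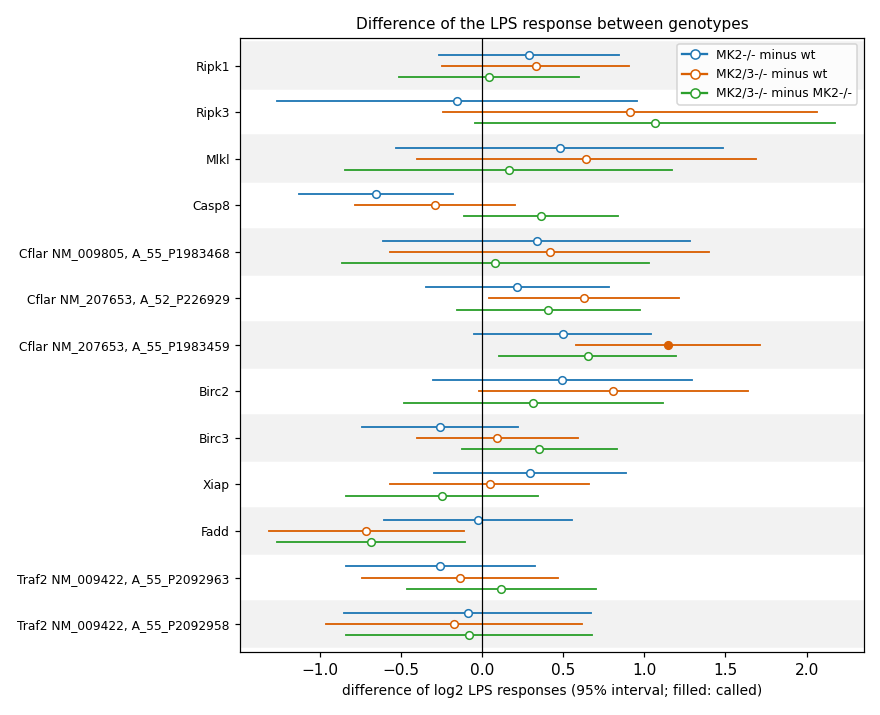
Differences of the LPS response between genotypes (horizontal axis, difference of log2 changes) for each of the 13 probes. Points are limma estimates, bars are 95% intervals and filled points were called. The 1 filled point is the Cflar probe A_55_P1983459 at 1.15 for MK2/3-/- minus wt, and the other 2 Cflar probes lie at 0.63 and 0.42.

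Of the 13 single probes 1 was called for MK2/3-/- against wt, where 0.984% of all probes were. This was the Cflar probe A_55_P1983459. It read 8.22, 8.63, 8.57 and 8.48 in wt medium and 12.16, 12.98 and 12.85 in wt LPS, and 8.0, 7.64 and 7.82 in MK2/3-/- medium and 13.04, 13.15, 13.24 and 13.20 in MK2/3-/- LPS. The MK2/3-/- arrays were thus below wt in medium and above it with LPS, without overlap in either. The rise was larger by 1.15 (95% interval 0.58 to 1.71, SE 0.27, adjusted p = 0.0482, 2.21-fold). The call was lost in 25 of 33 alternatives, by leaving out any of 18 arrays (all but wt LPS replicate 2, MK2-/- LPS replicate 4, MK2-/- medium replicate 2 and MK2/3-/- LPS replicate 4, with values of 0.89 to 1.24), without both arrays that went against their sex label (1.15, adjusted p = 0.07), and by scaling to the 75th percentile (0.81, adjusted p = 0.455). The other probe of NM_207653 gave 0.63 (adjusted p = 0.373) and the NM_009805 probe 0.42 (adjusted p = 0.837), so the probes of Cflar differ in this measure. For the remaining genes the differences of MK2/3-/- against wt were 0.91 for Ripk3 (-0.24 to 2.06), 0.81 for Birc2 (-0.02 to 1.64, and 0.43 without wt LPS replicate 1), 0.64 for Mlkl (-0.40 to 1.69), 0.09 for Birc3, 0.05 for Xiap and -0.14 for Traf2.

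The wider pathway was read from 52 further genes in 5 lists. With LPS 38 of the 52 were called in wt, 26 higher and 12 lower, with a median change of 0.68. In MK2-/- it was 42, 29 higher and 13 lower, and in MK2/3-/- 44, 30 higher and 14 lower. Of all genes 42.2%, 44.8% and 48.3% were called in wt, MK2-/- and MK2/3-/-. Those called higher made up 18.6%, 17.6% and 20.3%, and those lower 23.5%, 27.2% and 28%. With scaling to the 75th percentile the wt split of the 52 was 30 higher and 6 lower. Of the 15 receptors, ligands and adaptors 10 rose and 2 fell in wt, among them the ligands Tnf (6.40) and Tnfsf10 (5.95), the adaptor Traf1 (5.13) and Zbp1 (4.66), a nucleic acid sensor that engages RIPK3. Of the 10 genes of the linear ubiquitin ligase and the deubiquitinases 5 rose and 2 fell, with Tnfaip3 (5.87), the gene of A20, its partner Tnip1 (2.62) and the ligase subunit Rnf31 (2.02) higher, and the deubiquitinase gene Cyld (-2.20) lower.

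Of the 12 kinases that act on RIPK1 and their partners 6 rose and 3 fell in wt, with Ikbke (3.19) and Mapkapk2 (2.99) higher and Mapk14, the gene of p38 alpha (-2.82), and Tab1 (-2.35) lower. Of the 9 executioner and initiator caspases and mitochondrial genes 2 rose, among them Apaf1 (1.70), and 3 fell, among them Casp9 (-1.91) and Htra2 (-1.20). Htra2 was not called with scaling to the 75th percentile (-0.66). Of the 6 inflammatory caspases and lytic effectors 3 rose and 2 fell in wt, with Casp4 (4.37), Casp1 (2.19) and the pore-forming Gsdmd (1.17) higher and Gsdme (-1.68) lower.

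Between genotypes fewer of the 52 genes were called than with LPS. Under LPS 3 of the 52 were called for MK2-/- against wt, 8 for MK2/3-/- against wt and 4 for MK2/3-/- against MK2-/-, where 11.6%, 23.7% and 13.5% of all genes were. Besides Mapkapk2 and Mapkapk3 themselves, Mapk14 was lower in MK2/3-/- than in wt by 2.19 (adjusted p = 0.000248). Mapk14 was also lower in MK2/3-/- than in MK2-/- by 1.62 (adjusted p = 0.00195). Mapk14 had 2 probes, and all its values here are of the brightest, while those of the other are not given. Both differences stayed called without any 1 array, but not with the adjusted t-test (adjusted p = 0.0983 and 0.132). The second was also lost with limma fitted to the groups compared alone (adjusted p = 0.0579). Tab1, a partner of the kinase TAK1, was lower in MK2-/- than in wt by 0.78 (adjusted p = 0.0365), a call that was lost without wt LPS replicate 1 (-0.48), MK2-/- LPS replicate 1 (-0.84) or MK2-/- LPS replicate 4 (-0.64), or without both arrays that went against their sex label (-0.80, adjusted p = 0.0599). In MK2/3-/- Tab1 was below MK2-/- by 0.84 (adjusted p = 0.0147), lost without MK2-/- LPS replicate 1 (-0.78) or 2 (-0.77). Ticam1, the gene of the adaptor TRIF that couples Toll-like receptors to RIPK1, was higher in MK2-/- than in wt by 0.67 (adjusted p = 0.032). That call was lost without wt LPS replicate 1 (0.62) or 2 (0.59) or MK2-/- LPS replicate 1 (0.55) or 2 (0.66). The Tab1 and Ticam1 calls given here were also lost with the adjusted t-test and with limma fitted to the groups compared alone.

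In medium, where 8.37%, 2% and 2.78% of all genes were called in the same order of pairs, 2, 2 and 1 of the 52 were, all lower. Apart from Mapkapk2 and Mapkapk3 this was Tnfsf10, the gene of the death ligand TRAIL, lower in MK2-/- than in wt by 2.07 (adjusted p = 0.0478), a call lost in 26 of 35 alternatives, among them without both arrays that went against their sex label (-2.08, adjusted p = 0.0863). The response to LPS differed for Mapk14, with a difference of -2.09 between MK2/3-/- and wt (adjusted p = 0.0427, lost in 18 of 34 alternatives, and 0.0632 without both of those arrays). It also differed for Mapkapk3, the gene of the MK3 that MK2/3-/- BMDM lack. There the difference was -2.14 between MK2/3-/- and wt (adjusted p = 0.00954) and -2.61 between MK2/3-/- and MK2-/- (adjusted p = 0.00259, and 0.0643 with the title number as replicate block).

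The genes whose 6 group means ran most like those of a member were named by the root mean square difference of the 6 means after each gene's own mean was taken off. For Ripk1 they were Vmn1r181 (0.036), Nono (0.039) and Dlgap4 (0.045), against a median of 0.61 over all genes. For Ripk3 they were Tigd5 (0.10) and Rundc3b (0.11), against 0.62. For Mlkl they were Ebi3 (0.091) and Il18bp (0.11), against 2.00. The next by the same measure, Igfn1 for Ripk3 and Lrrc63 for Mlkl, had group means down to 3.04 and 2.41, where the lowest signals well above background lay at 2.12 to 3.69 over the arrays, and are given no distance. Of the named genes Tigd5, Rundc3b and Vmn1r181 were dim too, with group means of 4.10 to 4.77, 5.35 to 5.99 and 5.00 to 5.59. For Ripk1, whose pattern is nearly flat, many genes lie close, and with 6 means a small distance is a description only.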

How the data were processed

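Transcripts of 22 BMDM samples were measured on 1-colour Agilent arrays read with Feature Extraction 11.0.1.1. The intensity used is the deposited processed signal of each spot, which the scanner software had background-subtracted per the file headers. A second file that the authors deposited holds log2 values centred on each probe's median. Per array it correlated at r = 0.992 to 1.000 with the values computed here, and it served as an alternative. The authors' methods name quantile normalisation and a baseline at the median of all samples.

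Here log2 processed signals were quantile normalised over the 22 arrays, without 3671 control spots of 62976 spots and without spots marked as outliers. Probes entered the fit when they had an NCBI accession and exceeded background clearly on 3 or more arrays. limma 3.58.1 in R 4.3.3 (with version 1.17.8 of data.table) fitted 1 mean per genotype and treatment over all arrays (lmFit, eBayes), with Benjamini-Hochberg adjustment over all 28054 probes, and was tested on simulated data. Precision is limited by the number of arrays per group. Gene names come from RefSeq accessions through RefSeq's annotation of GRCm38.p6.

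The alternatives were another background correction and scaling, other probe filters, the deposited log2 values, array weights, fits of the compared groups alone, replicate blocks, the methods' t-test and leaving out each array. Leaving out both MK2-/- arrays that went against their sex label was chosen after seeing the data. The members and gene lists were chosen with earlier results of these data known. Every member was named, along with, per pathway list, the up to 4 largest called changes with LPS in wt, the up to 3 largest called genotype differences of the lists and every called difference in response. One gene that this rule names is not reported here. Likeness was measured for Ripk1, Ripk3 and Mlkl.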

Additional observations from a re-analysis of the deposited data

Results flagged for a closer look

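Among the 52 groups of 4 arrays of a member probe, 4 held an array far from the other 3, where chance gives about 5% of such groups. The measure is the gap to the nearest array divided by the range of the group. For Cflar it was 0.855 with probe A_52_P226929 and 0.933 with probe A_55_P1983459, in both cases for MK2-/- LPS replicate 4, which read 14.48 and 13.22 where the nearest arrays read 14.06 and 12.72. For Birc2 it was 0.955, with MK2-/- medium replicate 2 at 9.31 and the nearest array at 10.07. For Birc3 it was 0.857, with MK2-/- medium replicate 3, an array whose sex-linked genes went against its label, at 9.80 and the nearest array at 10.17.

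The response to LPS differed between genotypes by limma's test of the difference for 1 member probe and for 2 pathway genes. The Cflar probe A_55_P1983459 rose further in MK2/3-/- than in wt by 1.15. Mapk14 differed by -2.09 between MK2/3-/- and wt. Mapkapk3, the gene of the MK3 that MK2/3-/- BMDM lack, differed by -2.14 between MK2/3-/- and wt and by -2.61 between MK2/3-/- and MK2-/-. As given above, the calls of the Cflar probe and of Mapk14 were lost in most alternatives.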

How the results depend on the processing

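Over 111 values of genes and probes and 3911 alternative values of them, 3755 kept their direction and side of the threshold, 117 were no longer called, 23 became called and 16 turned direction, none of them a called value. The count of members called with LPS ranged over all alternatives from 6 to 8 in wt, 8 to 9 in MK2-/- and 7 to 9 in MK2/3-/-. For MK2/3-/- against wt under LPS the count of 2 became 0 with only the groups compared, 1 with array weights, 0 with the adjusted methods' t-test, and 1 to 2 without single arrays. For MK2/3-/- against MK2-/- under LPS it was 0 to 1 without single arrays and 1 without both arrays that went against their sex label. In medium, MK2-/- against wt gave 1 with normexp, 1 with array weights and 2 with the unadjusted t-test, which gave 1 for MK2/3-/- against MK2-/-. Of the 52 pathway genes, scaling to the 75th percentile called 5 in place of 3 for MK2-/- against wt and 15 in place of 8 for MK2/3-/- against wt under LPS, and 4 and 7 in place of 2 each in medium.

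Ripk1 turned to -0.19 (MK2-/- against wt) and -0.15 (MK2/3-/- against wt) under LPS with scaling to the 75th percentile. Without single arrays, its range was -0.083 to 0.154 for MK2-/- against wt, -0.013 to 0.239 for MK2/3-/- against MK2-/- under LPS and -0.037 to 0.204 for the same pair in medium. Its response difference between the knockouts was -0.029 with normexp and -0.089 to 0.168 without single arrays. Without both arrays that went against their sex label, the LPS difference between the knockouts was -0.013 and the response difference -0.069. Ripk3 with LPS in wt ranged from -0.495 to 0.067. The cause was not tested.

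The main fit used no pairing of LPS and medium arrays. Of 10 same-numbered pairs, some of unlike letter and 8 of the same age, 7 correlated above 0.1. So did 7 of the 10 pairs that share a letter in the array name and an age. Of the 30 pairs of unlike letter 5 did. With the title number as replicate block, 7, 9 and 7 members were called with LPS in wt, MK2-/- and MK2/3-/-, the last without Ripk1 (0.52, adjusted p = 0.0534). The Cflar probe A_55_P1983459 (1.13) and Mapkapk3 (-2.79) then lost their response calls, and the Ripk1 response difference between the knockouts was -0.028. With the letter as a random block no call changed. The number block could not be fitted for direct genotype comparisons, and the t-tests were not run for differences in response. Signal over background did not limit the members, which were well above it on every array.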
